A study of Homo sapiens with 6 samples.

Results

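The genes described here encode the machinery that carries a cell through mitosis, namely the cyclins and kinases that start it, the kinetochore and the checkpoint that watches it, the enzymes that release sister chromatids, condensin, spindle assembly factors and 2 transcription factors of the G2 and M phases. They were chosen by gene symbol from a list of 58, kinesin motors being left out. All 58 symbols were found among the 65746 genes of the deposited count table, and 57 had enough counts to be tested. KNL1, a kinetochore scaffold gene, was listed at 0 in each library, and no statement on its expression is made. RNA was sequenced from SU-DHL-8, a line of diffuse large B-cell lymphoma from a human, whose genotype is labelled WT. Cells had received beta-sitosterol, a plant sterol, at 15 µM for 24 h, or DMSO, the solvent, at a matched concentration for the same 24 h. There were 3 libraries in each group, described in the design text as replicate experiments with this single line, so p-values measure the spread between these 6 samples.

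During a normal cell cycle, cyclin A and B bind CDK1, and CDC25 phosphatases switch the complex on. Polo-like and Aurora kinases then build the spindle, while kinetochores on each centromere capture microtubules and BUB and MAD proteins hold back the anaphase-promoting complex until capture is complete. The complex, with its activator CDC20, next destroys cyclin B and securin, and separase cuts cohesin. Much of this set is transcribed late in the cycle, through promoters bound by the MuvB core with B-MYB and FOXM1, or kept silent in resting cells by the DREAM complex. Rapidly dividing lymphoma cells carry such transcripts at high levels.

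Totals ran from 26453101 to 35565163 counts per library. Across tested genes, log2 CPM correlated at 0.994 between treated libraries and at 0.972 to 0.991 between DMSO libraries, DMSO replicate 2 having the lowest values. All 7 B-cell marker genes were at 1 CPM or more in each library, their summed level lying between 4842 and 5752 CPM in DMSO and between 5369 and 5665 CPM in treated libraries. CD74 made up most of that sum, and other members moved apart, PAX5 going from 659.7 ± 43.5 to 208 ± 9.36 CPM, MS4A1 from 3.92 ± 0.63 to 18.3 ± 1.36 and CD79A from 371 ± 48.2 to 767 ± 31.3 (SD over 3 libraries; all 3 called by edgeR). Of 6 T and NK cell markers, 1, NKG7, reached 1 CPM in each library, and the list summed to 1.66 to 4.30 CPM in DMSO and to 7.64 to 8.89 CPM in treated libraries. The CD3 chain genes CD3E and CD3G and the T cell gene CD2 were at 0 in each library. CD3D, a further CD3 chain gene, had 2 counts in DMSO replicate 2 and 0 in every other library. Sums for 4 monocyte markers were 4.61 to 7.01 and 6.14 to 8.40 CPM, and for 4 fibroblast and epithelial markers 0.06 to 0.13 and 0.57 to 1.31 CPM, in DMSO and treated libraries. The part of these markers in the results was not tested.

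Levels are counts per 1000000 (CPM) with edgeR's TMM library scaling, and a gene is called higher or lower when its adjusted p in edgeR's quasi-likelihood test over 11525 genes is under 0.05. After beta-sitosterol 23 of the 57 tested mitotic genes were lower (40.4%), where 21.8% of all tested genes were called lower. Another 8 were higher, where 19.0% of all tested genes were, and 26 were not called. The median log2 fold change was -0.40 over the mitotic genes and -0.04 over all tested genes. Falls of at least 2-fold were reached by 5 genes, PLK1, SPC24, CENPF, FOXM1 and MKI67, and 0 rose by as much. Without DMSO replicate 2, PLK1 and SPC24 reached it and the other 3 did not. The higher genes were CDC25C, CKS1B, MAD2L1, PTTG1, CENPN, CENPW, NDC80 and NCAPG. In bulk RNA, fewer cells in G2 and M phases and less RNA of these genes per cell cannot be told apart.

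Treated libraries lay wholly below the DMSO libraries for 27 of the 57 genes (47.4%) and wholly above them for 10 (17.5%), where the shares over all tested genes were 29.1% and 27.0%. Without DMSO replicate 2, 29 genes were lower and 9 higher, against 30.3% and 26.4% of 11724 tested genes, and the median log2 fold change was -0.29. The 23 and the 8 all kept their calls there, SPC25 was added to the higher genes, and CDC25A, BIRC5, CENPA, CENPI, TOP2A and TACC3 to the lower ones. Leaving out treated replicate 1, 2 or 3 left 15, 15 or 14 lower genes and 2 higher ones each time, against 13.7%, 13.5% and 14.1% lower among all tested genes and 12.8%, 12.7% and 12.8% higher. The median log2 fold change of the mitotic genes in those fits was -0.39, -0.40 and -0.37. Lower calls that stood in the full set and without any 1 of the 6 libraries numbered 14, namely CCNA2, CDC25B, PLK1, INCENP, CDCA8, BUB1, BUB3, UBE2C, CENPF, SPC24, NCAPD2, NCAPH, GTSE1 and FOXM1. Higher calls with the same standing were 2, PTTG1 and NDC80. Without DMSO replicate 1 there were 18 lower and 6 higher mitotic genes (17.4% and 15.2% of all tested genes), and without DMSO replicate 3 there were 29 and 6 (22.0% and 21.9%). DESeq2 called 24 lower and 10 higher (22.3% and 21.8%). Each of the 31 called genes kept its direction under the 17 alternatives run. With limma in place of edgeR, on log2(TPM + 1), 20 mitotic genes were lower and 0 higher (19.3% and 6.19% of all tested genes). At an unadjusted p under 0.05, 1 mitotic gene was higher by limma. The median of all genes lay at -0.19 in that fit, and 24.3% of all calls were higher against 46.5% by edgeR on TMM-scaled counts. The log2 fold changes of the 8 higher genes stayed above 0.

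**Figure D1:**
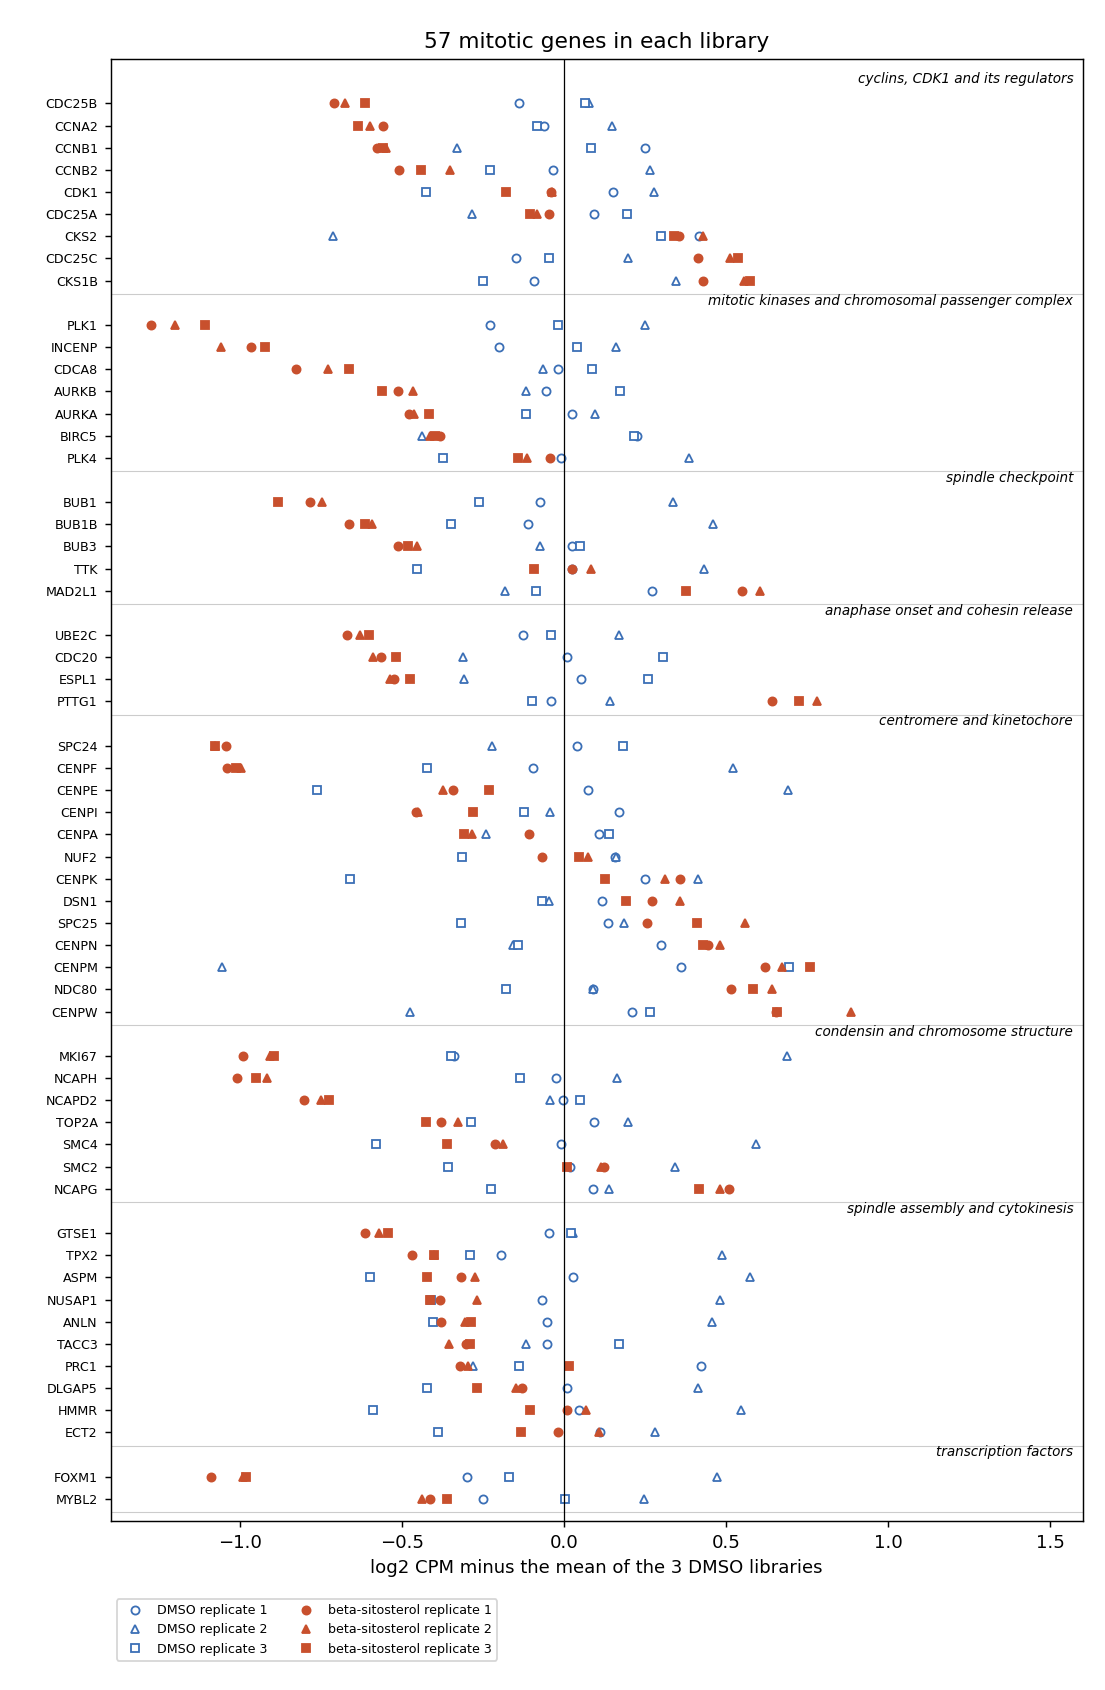
Each row is 1 of the 57 tested mitotic genes, by role, and each mark is 1 library, placed by its log2 CPM minus the mean of the 3 DMSO libraries. Treated libraries (filled) lie close together, and DMSO libraries (open) spread more widely, with DMSO replicate 2 (triangle) the highest of the 3 for 37 genes and the lowest for 18.

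The median SD of these genes was 0.06 log2 units in treated and 0.28 in DMSO libraries, and over all tested genes it was 0.09 and 0.28. DMSO replicate 2 was the highest DMSO library for 37 genes (64.9%) and the lowest for 18 (31.6%), where the shares over all tested genes were 40.4% and 41.4%. MKI67, CENPE and SMC4 stood furthest above the other DMSO libraries there, by 1.03, 0.98 and 0.86 log2 units, and CENPM and CKS2 furthest below, by -1.59 and -1.07.

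Promoter windows show what these genes have in common apart from their place in mitosis. RefSeq windows on GRCh38.p14, each 300 bases long and reaching from upstream of a start site to just past it, were given for 49 of the 58. Those of FOXM1, TTK, KNL1, UBE2C, BIRC5, TPX2, CENPM, AURKA and BUB3 were not used here. The cell cycle homology region, TTTGAA or TTCGAA on either strand, is the element that the MuvB core is known to bind. It was present in 36 of 49 genes (73.5%), against 16.04% of the 9086 tested genes and 19.5% of all 27305 genes with a window. CCAAT, the box of the NF-Y factor, was present on either strand in 37 of 49 (75.5%), against 43.8% of tested genes. One window held both in 28 of 49 mitotic genes (57.1%) and in 6.79% of tested genes. Genes of each outcome carried the homology region, 13 of 19 lower genes with a window, 7 of 8 higher genes and 16 of 22 genes not called. CCAAT was found in 17 of 19 lower genes, 6 of 8 higher genes and 14 of 22 genes not called. A match describes the letters and not a bound site, and for genes with several start sites any window counted.

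Among the cyclins, CDK1 and its regulators, 4 of 9 genes were lower and 2 higher, beside 21.8% and 19.0% of all tested genes. Role counts with 1 library left out, here and below, stand against the shares given above for the same fit. With so few genes in each role, the counts describe these genes alone. The cyclin genes CCNA2, CCNB1 and CCNB2 all fell. Values by library are given throughout in the order of replicates 1, 2 and 3. CDC25B, a phosphatase gene that activates CDK1 at mitotic entry, stood at 567, 658 and 653 CPM in DMSO replicates 1, 2 and 3 and at 381, 390.5 and 407 CPM in treated replicates 1, 2 and 3. The groups did not overlap, and the log2 fold change was -0.67 ± 0.11 (SE; edgeR adjusted p = 0.0021). CCNA2, cyclin A2 (ENSG00000145386, chromosome 4, 121816444 to 121823883; positions are RefSeq's on GRCh38.p14), stood at 249, 288 and 245 CPM with DMSO and at 176, 172 and 167 CPM with beta-sitosterol. Every treated library was below each DMSO library, with a log2 fold change of -0.60 ± 0.11 (adjusted p = 0.0037). CCNB1, cyclin B1, the main CDK1 partner in M phase, stood at 319.9, 214 and 285 CPM in the DMSO libraries and at 181, 184 and 183 CPM in the treated libraries. DMSO replicate 2 was its lowest DMSO value and still above the treated ones. Its log2 fold change was -0.58 ± 0.15 (adjusted p = 0.017), and the call was lost without DMSO replicate 1 or treated replicate 1, 2 or 3 (adjusted p = 0.059, 0.070, 0.065 and 0.066). CCNB1's log2 fold changes in those fits were -0.46, -0.58, -0.59 and -0.58. CCNB2, cyclin B2, went from 146 ± 25.6 to 107 ± 5.89 CPM (SD over 3 libraries in each group; adjusted p = 0.038) and was no longer called without DMSO replicate 1 or treated replicate 1, 2 or 3 (adjusted p = 0.077, 0.15, 0.094 and 0.13).

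CDK1, the kinase gene itself, stood at 149, 162 and 99.9 CPM with DMSO and at 130.3, 131 and 118 CPM with beta-sitosterol. The treated values lay within the DMSO range, and the log2 fold change of -0.12 ± 0.18 had a 95% interval of -0.53 to 0.30 (adjusted p = 0.63), turning to 0.02 without DMSO replicate 2. CDC25A, a phosphatase gene of the G1/S step as well, had a log2 fold change of -0.09 ± 0.14 (adjusted p = 0.62) and fell without DMSO replicate 2 (-0.23, adjusted p = 0.030). CDC25C, the third phosphatase gene, was a low transcript at 8.98, 11.4 and 9.64 CPM in the DMSO libraries and at 13.3, 14.2 and 14.4 CPM in the treated libraries. Its treated libraries were the higher ones throughout (log2 fold change 0.48 ± 0.15, adjusted p = 0.029), and the call was lost without DMSO replicate 1 or treated replicate 1, 2 or 3 (adjusted p = 0.092, 0.079, 0.11 and 0.11). CKS1B, a small CDK-binding subunit, stood at 199, 269.7 and 179 CPM with DMSO and at 286, 312 and 316 CPM with beta-sitosterol. It rose by 0.50 ± 0.16 log2 units (adjusted p = 0.038) without overlap, DMSO replicate 2 coming closest to the treated libraries, and the call was lost without DMSO replicate 1 or 3 or treated replicate 1, 2 or 3 (adjusted p = 0.13, 0.060, 0.084, 0.12 and 0.12). CKS2, its paralog, had a log2 fold change of 0.29 ± 0.26 with an interval of -0.30 to 0.88 (adjusted p = 0.39), and of 0.01 without DMSO replicate 2. For the group as a whole, 2 genes were lower and 0 higher without DMSO replicate 1 or any 1 treated replicate, and 4 were lower and 1 was higher without DMSO replicate 3.

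Among the mitotic kinases and the chromosomal passenger complex, 5 of 7 genes were lower and 0 higher, beside 21.8% and 19.0% of all tested genes. At an unadjusted p under 0.05 and by DESeq2, 0 were higher as well. PLK1, the polo-like kinase gene (ENSG00000166851, chromosome 16, 23678889 to 23690367), stood at 309, 431 and 357 CPM in the DMSO libraries and at 149.6, 158 and 168 CPM in the treated libraries. The treated libraries lay close together and far below the lowest DMSO library. Its log2 fold change was -1.21 ± 0.14 (adjusted p = 5.04e-04) and -1.08 without DMSO replicate 2. The promoter window of PLK1 is shown because it holds both the homology region and a CCAAT box, as 28 of the windowed genes do; capitals mark both (chr16:23678639-23678938, plus strand, 5′ to 3′ along the gene).
PLK1: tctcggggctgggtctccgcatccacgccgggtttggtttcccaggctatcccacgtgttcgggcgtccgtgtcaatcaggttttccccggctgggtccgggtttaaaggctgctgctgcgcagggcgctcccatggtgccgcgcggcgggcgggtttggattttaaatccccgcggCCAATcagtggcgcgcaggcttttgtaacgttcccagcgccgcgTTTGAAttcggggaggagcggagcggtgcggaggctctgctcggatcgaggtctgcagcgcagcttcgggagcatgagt

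The passenger complex, made of Aurora B, INCENP, borealin (CDCA8) and survivin (BIRC5), corrects wrong microtubule attachments. INCENP, its scaffold (ENSG00000149503, chromosome 11, 62124011 to 62153169), stood at 196, 252 and 232 CPM with DMSO and at 115, 108 and 119 CPM with beta-sitosterol. CDCA8 stood at 160.0, 155 and 172 CPM in the DMSO libraries and at 91.5, 97.9 and 102 CPM in the treated libraries. Both were lower in every treated library, with log2 fold changes of -0.99 ± 0.13 and -0.74 ± 0.11 (adjusted p = 7.12e-04 and 0.0014). AURKB, the kinase subunit, stood at 228, 219 and 267 CPM with DMSO and at 166, 172 and 161 CPM with beta-sitosterol. It fell by 0.52 log2 units (SE 0.12; adjusted p = 0.0087) and its call was lost without treated replicate 3 (adjusted p = 0.056). BIRC5 had a log2 fold change of -0.43 ± 0.18 that was not called (adjusted p = 0.085), its DMSO replicate 2 at 138.7 CPM lying below the treated libraries and the others at 219.6 and 218 CPM above them. Without DMSO replicate 2 it fell by 0.62 log2 units (adjusted p = 1.09e-05).

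AURKA, the kinase gene of the spindle poles, went from 269 ± 20.01 to 196 ± 4.28 CPM (SD over 3 libraries in each group; adjusted p = 0.010) and its call was lost without treated replicate 1, 2 or 3 (adjusted p = 0.062, 0.065 and 0.052). PLK4, which starts centriole copying, stood at 66.9, 88.0 and 52.0 CPM in the DMSO libraries and at 65.4, 62.3 and 61.0 CPM in the treated libraries. Its groups overlapped, with a log2 fold change of -0.13 ± 0.18 (95% interval -0.55 to 0.29, adjusted p = 0.59) that turned to 0.08 without DMSO replicate 2. Of the 7 genes 3 were lower without treated replicate 3.

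In the spindle checkpoint 3 of 5 genes were lower and 1 was higher, beside 21.8% and 19.0% of all tested genes. BUB1, a checkpoint kinase gene (ENSG00000169679, chromosome 2, 110637528 to 110678063), stood at 488, 649 and 428 CPM with DMSO and at 298, 306 and 279 CPM with beta-sitosterol. Its treated libraries were below all DMSO libraries (log2 fold change -0.83 ± 0.16, adjusted p = 0.0043). BUB3, which recruits BUB1 to kinetochores, stood at 306, 286 and 311 CPM in the DMSO libraries and at 211, 219.6 and 215 CPM in the treated libraries. DMSO values were close together and the fall was clear of them (-0.48 ± 0.10, adjusted p = 0.0061). BUB1B, encoding the inhibitor BUBR1, stood at 157, 234 and 133 CPM with DMSO and at 107, 113 and 111 CPM with beta-sitosterol. It fell by 0.66 log2 units (adjusted p = 0.027), or 0.40 without DMSO replicate 2, and its call was lost without DMSO replicate 1 or treated replicate 1, 2 or 3 (adjusted p = 0.052, 0.094, 0.079 and 0.085).

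MAD2L1, the MAD2 gene, whose product is the soluble anaphase inhibitor, went the other way (ENSG00000164109, chromosome 4, 120055623 to 120066848). MAD2L1 stood at 122, 88.7 and 94.9 CPM in the DMSO libraries and at 147, 153 and 131 CPM in the treated libraries. The treated libraries were the higher ones without overlap (log2 fold change 0.50 ± 0.15, adjusted p = 0.027), and the call was lost without treated replicate 1, 2 or 3 (adjusted p = 0.10, 0.12 and 0.055). TTK, the kinase gene that starts the checkpoint, stood at 69.8, 92.5 and 50.2 CPM with DMSO and at 69.8, 72.8 and 64.4 CPM with beta-sitosterol. Treated values fell between the DMSO values, and the log2 fold change of -0.04 ± 0.21 (95% interval -0.51 to 0.43, adjusted p = 0.90) turned to 0.20 without DMSO replicate 2. Without treated replicate 1, 2 or 3, 2 checkpoint genes were lower and 0 higher.

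All 4 genes of anaphase onset and cohesin release were called, 3 lower and 1 higher, beside 21.8% and 19.0% of all tested genes. UBE2C, the ubiquitin-conjugating enzyme of the anaphase-promoting complex, stood at 464, 569 and 492 CPM in the DMSO libraries and at 318, 327 and 334 CPM in the treated libraries. CDC20, the activator of that complex, stood at 433, 347 and 531 CPM with DMSO and at 291, 286 and 300.2 CPM with beta-sitosterol. Both fell, by 0.64 and 0.58 log2 units (adjusted p = 0.0032 and 0.019), and CDC20 missed the threshold without DMSO replicate 1 or treated replicate 1, 2 or 3 (adjusted p = 0.054, 0.073, 0.076 and 0.064).

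PTTG1 encodes securin, which blocks separase until anaphase (ENSG00000164611, chromosome 5, 160421855 to 160428744). PTTG1 stood at 120.2, 136 and 116 CPM in the DMSO libraries and at 193, 213 and 205 CPM in the treated libraries. The treated libraries all lay above the highest DMSO library, and the log2 fold change was 0.71 ± 0.12 (adjusted p = 0.0020). ESPL1, the separase gene (ENSG00000135476, chromosome 12, 53268299 to 53293638), stood at 525, 409.6 and 607 CPM with DMSO and at 352, 349.5 and 365 CPM with beta-sitosterol. It was named after its values were seen; it fell by 0.53 log2 units (adjusted p = 0.022), and the call was lost without DMSO replicate 1 or 3 or treated replicate 1, 2 or 3 (adjusted p = 0.067, 0.0505, 0.084, 0.087 and 0.073). Lower genes of this group numbered 1 without DMSO replicate 1, 2 without DMSO replicate 3 and 1 without treated replicate 1, 2 or 3, while PTTG1 stayed higher each time. Reads from near-identical copies of PTTG1 could be shared with it, though PTTG2, PTTG3P and PTTG4P had at most 17, 0 and 2 counts in any library.

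Their promoter windows are set side by side because the pair moved in opposite directions; capitals mark the homology region and CCAAT on either strand. The ESPL1 window (chr12:53268049-53268348, plus strand) holds 1 homology region and 1 CCAAT. The first of 2 PTTG1 windows (chr5:160421605-160421904, plus strand) holds 0 and 3, a pair of the 3 overlapping in opposite orientation.
PTTG1: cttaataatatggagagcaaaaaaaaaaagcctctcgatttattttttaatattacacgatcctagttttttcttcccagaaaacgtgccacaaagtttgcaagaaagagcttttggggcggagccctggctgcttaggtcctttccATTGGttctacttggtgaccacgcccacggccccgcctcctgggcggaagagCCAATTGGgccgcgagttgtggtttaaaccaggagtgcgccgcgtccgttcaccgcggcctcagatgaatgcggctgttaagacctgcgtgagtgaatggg
ESPL1: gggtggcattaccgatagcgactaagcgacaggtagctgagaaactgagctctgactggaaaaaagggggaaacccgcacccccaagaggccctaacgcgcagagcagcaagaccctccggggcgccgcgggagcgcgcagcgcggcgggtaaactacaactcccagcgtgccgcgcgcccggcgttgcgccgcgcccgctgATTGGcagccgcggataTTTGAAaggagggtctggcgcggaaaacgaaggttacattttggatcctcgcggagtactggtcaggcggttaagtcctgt

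Of 13 tested centromere and kinetochore genes, 2 were lower and 3 higher, beside 21.8% and 19.0% of all tested genes. Their median log2 fold change was 0.20, and -0.03 without DMSO replicate 3. DESeq2 called 3 lower and 5 higher. SPC24, a subunit of the NDC80 complex that anchors it to the inner kinetochore (ENSG00000161888, chromosome 19, 11145493 to 11155782), stood at 50.6, 42.1 and 55.8 CPM in the DMSO libraries and at 23.8, 23.3 and 23.3 CPM in the treated libraries. Its treated libraries were almost identical and each lay far below the DMSO range (log2 fold change -1.08 ± 0.14, adjusted p = 6.84e-04). CENPF, a large kinetochore protein gene (ENSG00000117724, chromosome 1, 214603195 to 214664571), stood at 331, 507 and 263 CPM with DMSO and at 172, 177 and 175 CPM with beta-sitosterol. It fell by 1.07 log2 units (adjusted p = 0.0054), and by 0.77 without DMSO replicate 2, its highest library.

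NDC80, which encodes the microtubule-binding subunit of the same complex (ENSG00000080986, chromosome 18, 2571557 to 2616635), stood at 85.5, 85.6 and 71.1 CPM in the DMSO libraries and at 115, 125 and 121 CPM in the treated libraries. It rose by 0.58 ± 0.12 log2 units without overlap (adjusted p = 0.0064). CENPW, a small histone-fold protein gene of the inner kinetochore, stood at 47.1, 29.3 and 48.9 CPM with DMSO and at 64.0, 75.2 and 64.1 CPM with beta-sitosterol. CENPN, which reads the centromeric nucleosome, stood at 42.3, 30.8 and 31.2 CPM in the DMSO libraries and at 46.8, 48.0 and 46.3 CPM in the treated libraries. Both were higher in every treated library, by 0.70 ± 0.20 and 0.43 ± 0.15 log2 units (adjusted p = 0.022 and 0.047). CENPW missed the threshold without treated replicate 1, 2 or 3 (adjusted p = 0.059, 0.089 and 0.057) and CENPN without DMSO replicate 3 or treated replicate 1, 2 or 3 (adjusted p = 0.059, 0.13, 0.15 and 0.12). The windows of SPC24 (chr19:11155733-11156032, minus strand) and NDC80 (chr18:2571307-2571606, plus strand) are given because subunits of a single complex moved apart. SPC24 holds 0 homology regions and 3 CCAAT boxes. NDC80 holds the homology region in both spellings, next to each other, and 0 CCAAT boxes. Here the higher gene holds the homology region, while of PTTG1 and ESPL1 the lower gene does. A link between motif and direction was not tested.
SPC24: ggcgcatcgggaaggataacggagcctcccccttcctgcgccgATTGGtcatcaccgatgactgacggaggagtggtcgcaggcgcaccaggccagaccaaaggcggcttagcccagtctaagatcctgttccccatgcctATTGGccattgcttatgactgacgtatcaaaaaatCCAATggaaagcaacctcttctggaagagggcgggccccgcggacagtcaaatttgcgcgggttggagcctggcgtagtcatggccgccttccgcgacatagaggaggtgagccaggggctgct
NDC80: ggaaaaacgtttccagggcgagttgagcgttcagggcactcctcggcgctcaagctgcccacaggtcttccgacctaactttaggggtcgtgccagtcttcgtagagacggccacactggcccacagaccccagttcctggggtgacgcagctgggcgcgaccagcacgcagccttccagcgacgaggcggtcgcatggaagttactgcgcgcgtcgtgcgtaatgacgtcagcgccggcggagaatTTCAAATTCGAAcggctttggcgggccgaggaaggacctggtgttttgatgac

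The other 8 tested kinetochore genes were not called. NUF2, the partner of NDC80, had a log2 fold change of 0.00 ± 0.15 (95% interval -0.34 to 0.35), and SPC25, the partner of SPC24, one of 0.40 ± 0.17 (adjusted p = 0.088), called higher without DMSO replicate 2 (adjusted p = 0.0098). CENPI came closest to a call (-0.40 ± 0.14, adjusted p = 0.0504), and it was lower without DMSO replicate 2 or 3 (adjusted p = 0.015 and 0.036). CENPA, the centromeric histone, had -0.24 ± 0.15 log2 units (adjusted p = 0.22), and was lower without DMSO replicate 2 (adjusted p = 0.016). CENPE had -0.43 ± 0.30 with an interval of -1.13 to 0.26, and its value was -0.03 without DMSO replicate 2 (adjusted p = 0.88), while it was called lower without DMSO replicate 3 (adjusted p = 0.021). CENPK, CENPM and DSN1 had log2 fold changes of 0.20 ± 0.25, 0.51 ± 0.36 and 0.27 ± 0.12, and of 0.40, 0.14 and 0.24 without DMSO replicate 2. Among kinetochore genes, 4 higher and 4 lower calls were made without DMSO replicate 2, 2 and 4 without DMSO replicate 3, and 1 and 2 after leaving out treated replicate 1, 2 or 3.

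Of 7 condensin and chromosome structure genes, 3 fell and 1 rose, beside 21.8% and 19.0% of all tested genes. NCAPH, the kleisin subunit that closes the condensin ring (ENSG00000121152, chromosome 2, 96335766 to 96377091), stood at 109, 124 and 100.5 CPM with DMSO and at 54.9, 58.5 and 57.1 CPM with beta-sitosterol. NCAPD2, a HEAT-repeat subunit, stood at 882, 858 and 915 CPM in the DMSO libraries and at 507, 525 and 535 CPM in the treated libraries. Each fell without overlap, by 0.96 and 0.76 log2 units (adjusted p = 6.69e-04 and 8.19e-04). NCAPG, the other HEAT-repeat subunit, stood at 147, 152 and 118 CPM with DMSO and at 196, 193 and 184 CPM with beta-sitosterol. It rose by 0.46 ± 0.13 log2 units (adjusted p = 0.021), and the call was lost without treated replicate 1, 2 or 3 (adjusted p = 0.093, 0.088 and 0.067).

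SMC4, an ATPase subunit, stood at 212, 322 and 143 CPM in the DMSO libraries and at 184, 188 and 167 CPM in the treated libraries. DMSO libraries alone spanned more than the difference between groups (-0.33 ± 0.26, 95% interval -0.91 to 0.25, adjusted p = 0.33), and the value was 0.01 without DMSO replicate 2. Without DMSO replicate 3 it was called lower (adjusted p = 0.048). SMC2, the other ATPase subunit, had 0.05 ± 0.17 log2 units (adjusted p = 0.82), and 0.23 without DMSO replicate 2. MKI67, the proliferation antigen that coats mitotic chromosomes, stood at 764, 1555 and 759 CPM with DMSO and at 486, 515 and 519 CPM with beta-sitosterol. All treated libraries were lower, with a log2 fold change of -1.02 ± 0.27 (adjusted p = 0.016) and of -0.59 without DMSO replicate 2, which held about as much as the other DMSO libraries together, and the call was lost without treated replicate 1, 2 or 3 (adjusted p = 0.063, 0.052 and 0.054). TOP2A, the topoisomerase gene that untangles sister chromatids, stood at 682, 734 and 525 CPM in the DMSO libraries and at 492, 510.4 and 476 CPM in the treated libraries. Its groups did not overlap, yet it missed the threshold (-0.39 ± 0.14, adjusted p = 0.053), and it was lower without DMSO replicate 2 or 3 (adjusted p = 0.018 and 0.0082). The group had 5 lower genes without DMSO replicate 3, and 2 lower and 0 higher without treated replicate 1, 2 or 3.

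**Figure D2:**
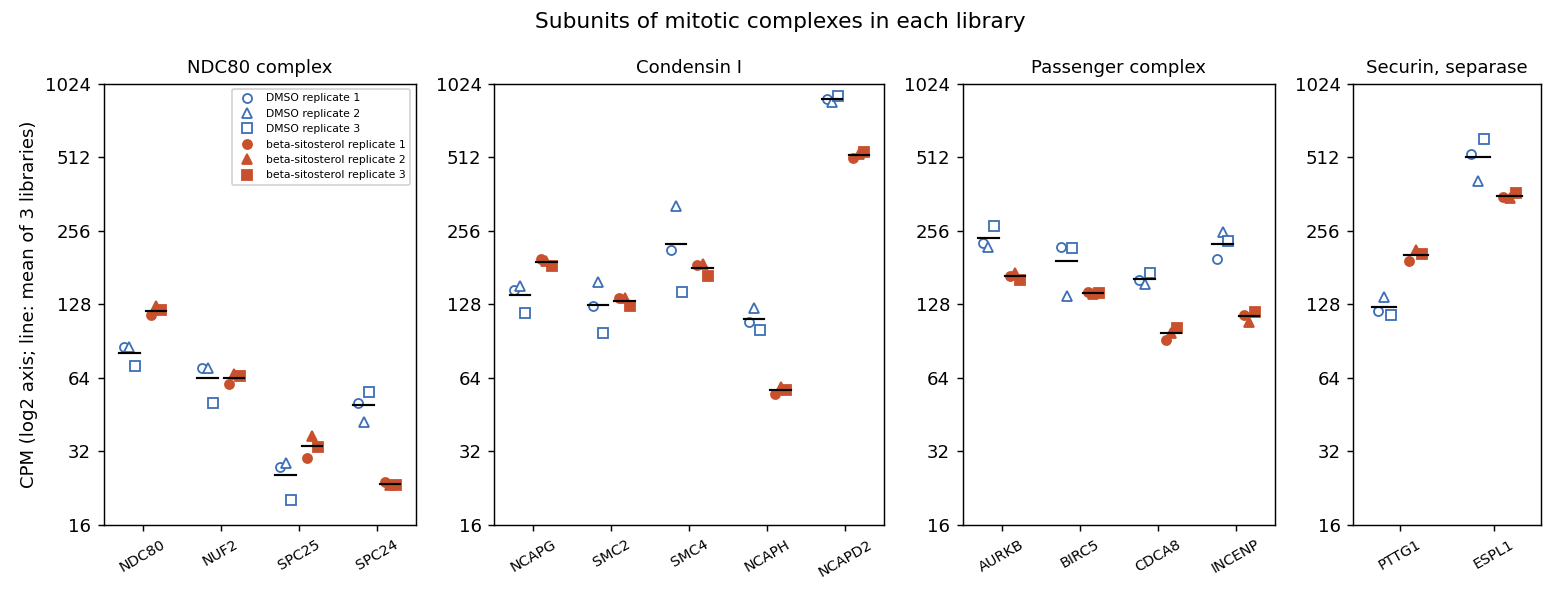
CPM in each library, on a log2 axis, for subunits of the NDC80 complex, condensin I, the chromosomal passenger complex and for securin and separase; the line is the mean of 3 libraries. NDC80, NCAPG and PTTG1 were higher in treated libraries (filled), while SPC24, NCAPH, NCAPD2 and ESPL1 were lower.

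Ratios within a library compare partners without any scaling between libraries, but a length trend that differs between libraries does not cancel in them. The 3 pairs were chosen after their values were seen. The log2 ratio of NDC80 to SPC24 was 0.76, 1.02 and 0.35 in DMSO replicates 1, 2 and 3 and 2.27, 2.43 and 2.37 in the treated ones. The log2 ratio of NCAPG to NCAPD2 went from -2.68 ± 0.24 to -1.45 ± 0.09 (SD, n = 3 per group), and that of PTTG1 to ESPL1 from -2.04 ± 0.41 to -0.81 ± 0.08. Differences were 1.65, 1.23 and 1.23 log2 units, and 1.80, 1.32 and 1.45 without DMSO replicate 2. With the length trend removed, log2 fold changes were 0.34 for NDC80 and -1.21 for SPC24. They were 0.44 for NCAPG and -0.63 for NCAPD2, and 0.52 for PTTG1 and -0.32 for ESPL1. In that edgeR fit NDC80 and ESPL1 were not called (adjusted p = 0.078 and 0.16). No test is given, because each pair joins a higher to a lower gene, and no ratio was taken for partners that did not move apart, such as NUF2.

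Of 10 spindle assembly and cytokinesis genes, 1 fell and 0 rose, beside 21.8% and 19.0% of all tested genes. At an unadjusted p under 0.05 and by DESeq2, 0 rose as well. All 10 had a log2 fold change below 0 with all 6 libraries, where DMSO replicate 2 was the highest DMSO library for 8 of them (80%, against 40.4% of all tested genes). Their median log2 fold change was -0.34, and -0.12 without DMSO replicate 2, beside -0.04 and -0.02 over all tested genes. GTSE1, a microtubule-binding protein gene of G2 and M phases (ENSG00000075218, chromosome 22, 46296870 to 46330810), stood at 136, 144 and 143 CPM with DMSO and at 92.0, 94.8 and 96.7 CPM with beta-sitosterol. It was the called one, at -0.58 ± 0.10 log2 units (adjusted p = 0.0032). TPX2, which activates Aurora A, and TACC3, which strengthens kinetochore fibres, had -0.47 ± 0.20 and -0.32 ± 0.12 log2 units (adjusted p = 0.092 and 0.054) with no overlap between groups. TPX2 was at -0.19 without DMSO replicate 2 (adjusted p = 0.0501) and was lower without DMSO replicate 3 (adjusted p = 0.047). TACC3 was lower without DMSO replicate 2 (adjusted p = 0.0012). HMMR, a spindle-pole protein gene, stood at 79.5, 112 and 51.2 CPM in the DMSO libraries and at 77.5, 80.7 and 71.6 CPM in the treated libraries. DLGAP5, which stabilises kinetochore fibres, stood at 71.0, 93.9 and 52.6 CPM with DMSO and at 64.5, 63.6 and 58.5 CPM with beta-sitosterol. ECT2, the exchange factor that starts the cleavage furrow, stood at 58.1, 65.4 and 41.2 CPM in the DMSO libraries and at 53.2, 58.1 and 49.1 CPM in the treated libraries. For these 3 the treated libraries fell within the DMSO range, and log2 fold changes of -0.08, -0.22 and -0.04 turned to 0.22, 0.003 and 0.10 without DMSO replicate 2.

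ASPM and NUSAP1, spindle genes, had log2 fold changes of -0.42 ± 0.25 and -0.40 ± 0.21, and ANLN, the anillin gene of the furrow, one of -0.37 ± 0.20 (adjusted p = 0.22, 0.15 and 0.18). Treated libraries of all 3 overlapped the DMSO range. Their values without DMSO replicate 2 were -0.09, -0.13 and -0.11. PRC1, a midzone cross-linker gene, was listed at only 1.53 to 2.55 CPM, with a log2 fold change of -0.23 ± 0.26, or -0.36 without DMSO replicate 2. This group had 2 lower genes without DMSO replicate 2 and 5 without DMSO replicate 3, namely TPX2, ANLN, ASPM, NUSAP1 and GTSE1.

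Both transcription factor genes were lower, where 21.8% of all tested genes were. FOXM1 (ENSG00000111206, chromosome 12, 2857680 to 2877174), which drives G2 and M genes, stood at 205, 349 and 224 CPM with DMSO and at 118, 127 and 128 CPM with beta-sitosterol. It fell without overlap by 1.06 log2 units (adjusted p = 0.0037), and by 0.79 without DMSO replicate 2. MYBL2, the B-MYB gene, was the most abundant of the 57 by length-scaled level, at 2951 ± 613 in DMSO and 1797 ± 28.5 in treated libraries (SD, n = 3; deposited TPM rescaled so that the listed genes sum to 1000000). MYBL2 stood at 1595, 2252 and 1901 CPM in the DMSO libraries and at 1425, 1399.9 and 1476 CPM in the treated libraries. The fall of 0.42 log2 units passed narrowly (adjusted p = 0.045) and was lost without DMSO replicate 3 or treated replicate 1, 2 or 3 (adjusted p = 0.088, 0.14, 0.15 and 0.12).

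**Figure D3:**
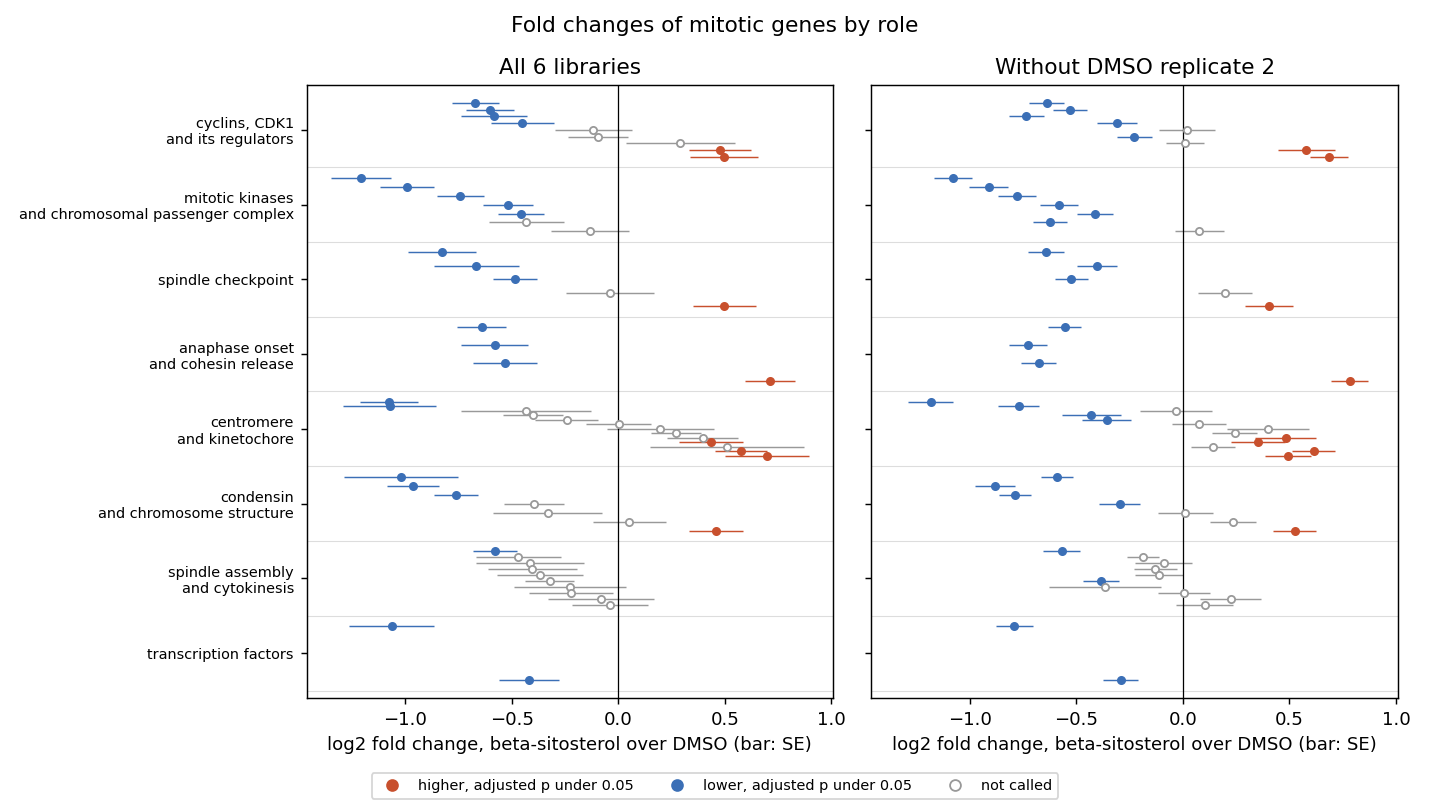
Log2 fold change of each of the 57 genes by role, with its SE as a bar, from all 6 libraries and without DMSO replicate 2; filled marks passed an adjusted p of 0.05. Lower genes were 23 and higher genes 8 with all libraries, and 29 and 9 without DMSO replicate 2.

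A second list holds 107 other genes of these processes, kinesins again left out. Of 106 tested genes, 21 were lower (19.8%) and 15 higher (14.2%), neither share above the 21.8% and 19.0% of all tested genes, and the median log2 fold change was -0.07. Counts for each kind of gene stand against those same shares, and with so few genes in each they describe these genes alone. CENPX was listed at 0. Of 17 genes of the anaphase-promoting complex and its partners, 2 were lower and 4 higher. FZR1, the CDH1 activator that replaces CDC20 after anaphase, went from 138 ± 29.7 to 67.8 ± 5.62 CPM, and ANAPC16, a small subunit, from 39.0 ± 6.44 to 66.0 ± 3.17 CPM (adjusted p = 0.0022 and 0.0041). ANAPC1, a scaffold subunit, was the other lower gene (-0.42 log2 units, adjusted p = 0.039). Of 15 cohesin genes 3 fell and 0 rose, SMC1A from 472 ± 103 to 255 ± 5.80 CPM and STAG1 from 71.4 ± 11.5 to 47.6 ± 0.58 CPM (adjusted p = 0.0028 and 0.012); 0 were higher at an unadjusted p under 0.05 and by DESeq2. Without DMSO replicate 2, 7 cohesin genes were lower and 2 higher.

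Of 21 other centromere and kinetochore genes, 7 rose and 3 fell (all tested genes, 19.0% and 21.8%). CENPP, of the inner kinetochore, went from 17.7 ± 1.32 to 9.48 ± 0.68 CPM and ZWINT, which links the checkpoint to the outer kinetochore, from 232 ± 7.40 to 359 ± 6.92 CPM (adjusted p = 0.0015 and 0.0017). CENPB and HJURP were the other lower ones, with log2 fold changes of -0.85 and -0.45. Of 7 other checkpoint genes 3 rose and 1 fell, with MAD2L1BP, a gene that silences MAD2, from 57.3 ± 17.6 to 114 ± 3.41 CPM, KNTC1, a kinetochore recruiter of dynein, from 126 ± 18.2 to 177 ± 6.19 CPM, and TRIP13, the MAD2 remodelling ATPase, from 104 ± 15.0 to 78.7 ± 2.92 CPM (adjusted p = 0.0074, 0.018 and 0.040).

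Of 25 centrosome, spindle pole and cytokinesis genes 8 fell and 1 rose, HAUS1, an augmin subunit (0.75 log2 units, adjusted p = 0.0046). CIT, the citron kinase gene of cytokinesis, went from 146 ± 35.8 to 62.3 ± 2.08 CPM and NUMA1, which anchors spindle poles, from 199.7 ± 21.7 to 117 ± 2.92 CPM (adjusted p = 0.0011 and 0.0016). Of 10 DREAM and MuvB genes 3 were lower and 0 higher, E2F4 and its partner TFDP1 having log2 fold changes of -0.65 and -0.52 (adjusted p = 0.0028 and 0.0041), again with 0 higher at an unadjusted p and by DESeq2. Of 3 condensin II subunits 1 was lower, NCAPD3 (-0.33, adjusted p = 0.036), and 0 of 8 entry kinases, phosphatases and their regulators were called by edgeR or by DESeq2; at an unadjusted p under 0.05 each had 1 lower gene, WEE1, the kinase gene that holds CDK1 inactive, named after its values were seen. Over the second list, 25 genes were higher and 35 lower without DMSO replicate 2 (26.4% and 30.3% of all tested genes), 16 and 33 without DMSO replicate 3 (21.9% and 22.0%), and 8, 6 or 9 higher and 10, 10 or 9 lower without treated replicate 1, 2 or 3 (12.8%, 12.7% and 12.8% higher and 13.7%, 13.5% and 14.1% lower). Of the called genes named from this list, STAG1, CENPB and HJURP were called in 3 of the 6 fits that leave out 1 library, ANAPC1, KNTC1, TRIP13 and NCAPD3 in 2, and the others in all 6. With the length trend removed, ANAPC1, STAG1 and NCAPD3 were not called (adjusted p = 0.17, 0.070 and 0.29).

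Gene lengths of the outcomes overlapped. Relative to the median tested gene, as given by the ratio of deposited count to TPM, the 8 higher genes measured 0.14 to 1 times (median 0.58), the 23 lower ones 0.38 to 2.34 (median 0.94) and the 26 not called 0.05 to 3.38 (median 1.16). Spearman's correlation of log2 fold change with length was -0.23 across the 57 genes and -0.23 across all 11525, over points that share the same 6 libraries. The excess of DMSO replicate 2 over its group correlated with length at 0.44 across the 57 genes and at 0.19 across all genes. With the length trend of each library removed, 6 genes were higher and 24 lower (19.3% and 21.2% of all tested genes). Of the full set's calls, 5 of 8 higher and 22 of 23 lower ones stood there, CKS1B, CENPW, NDC80 and ESPL1 being lost (adjusted p = 0.22, 0.12, 0.078 and 0.16). With DMSO replicate 2 also left out, 10 were higher and 31 lower (27.3% and 28.9% of all tested genes).

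**Figure D4:**
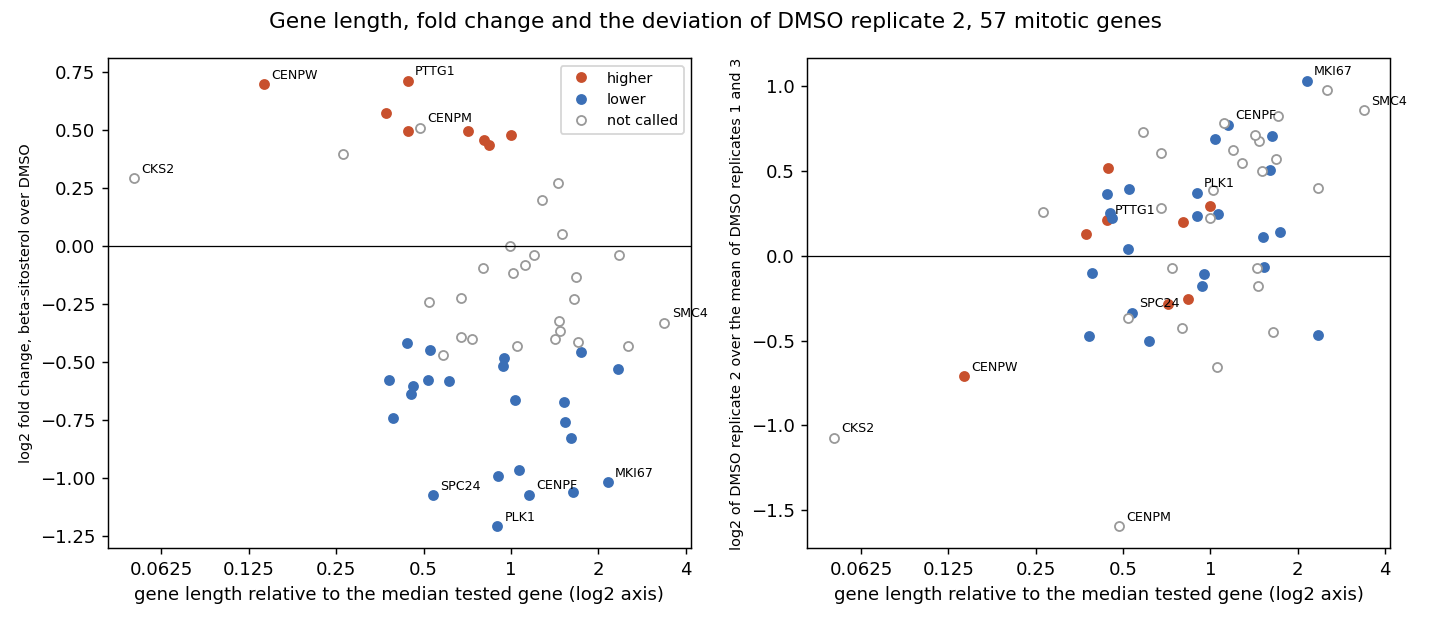
Left, log2 fold change, and right, the log2 ratio of DMSO replicate 2 to the mean of the other DMSO libraries, each against gene length relative to the median tested gene (log2 axis), for 57 mitotic genes. Higher genes have lengths of 1 or less. DMSO replicate 2 is the highest DMSO library for MKI67 and SMC4, which are long, and the lowest for CENPM and CKS2, which are short. Other genes go against this, such as ESPL1 (length 2.34, lowest there) and CKS1B (length 0.44, highest there).

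Of the 58 genes 27 overlap another annotated RefSeq gene on either strand, PLK1, CCNA2, CENPF, NDC80, NCAPD2 and FOXM1 among them, and because no source used here states whether counting used strand, the gene of origin of a read in such an overlap is uncertain. Named copies of 17 of the genes, mostly pseudogenes, are in the table, 33 in all, of which 4 had any counts and the highest had 25 in a library.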

How the data were processed

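Total RNA was taken with TRIzol and made into Illumina libraries, per the labels' protocols. STAR 2.7.10, featureCounts 2.0.1, StringTie 2.2.1 and fastp 0.23.2 are named in the submitters' processing notes, with the build GRCh38. The strand setting and annotation used in counting are not stated. The deposited table holds raw read counts per gene, and a second deposited table holds TPM, deposited by the authors; count divided by TPM departed from a gene constant times a library constant by at most 0.026%. Listed genes summed to 39.5% of the 1000000 that TPM sums to by definition in DMSO replicate 2 and to 57.0 to 69.2% in the other libraries. Of 65807 lines, 61 with a repeated symbol were dropped, leaving 65746 genes, of which 47323 were at 0 throughout and 11525 passed edgeR's filterByExpr.

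Counts of all 6 libraries were fitted with edgeR 4.0.16 (R 4.3.3; TMM factors, quasi-likelihood F test, treatment as the only term) and p-values were adjusted by Benjamini-Hochberg over 11525 genes, with a threshold of 0.05. The SE of a log2 fold change is its size divided by the square root of F. The step was tested on simulated counts for 200 changed genes per draw over 10 draws of this comparison, where 70.2% of 2-fold and 97.2% of 4-fold changes were found and 5.44% of calls were false. Alternatives were RLE factors, library totals, no filter, a minimum of 1 CPM in at least 3 libraries, a DESeq2 1.42.0 test, limma 3.58.1 applied to log2(TPM + 1) and log2(TPM + 0.1), the replicate number as a block, removal of each library's length trend, both together, and each library left out. Both limma fits used the deposited TPM without rescaling. Removal of the length trend without DMSO replicate 2 was added after seeing the data.

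Values in each library are printed for up to 3 called genes of each role with the smallest p, every higher gene, CCNB1, CDK1, PLK1, AURKB, MKI67, TOP2A, FOXM1 and MYBL2, and genes whose call is lost or whose direction turns without DMSO replicate 2; of each list of other genes, up to 2 called genes with the smallest p and those going against the majority are named. Genes, lists and tests were chosen with earlier results of these data known.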

Additional observations from a re-analysis of the deposited data

How the results depend on the processing

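Fewer genes were called higher by limma on TPM than by edgeR on TMM-scaled counts. Test and scale changed together there, so their parts cannot be told apart. On log2(TPM + 1) and log2(TPM + 0.1), 713 and 691 of all genes were higher, 0 and 0 of the mitotic genes, and 1 and 0 of the second list, while 20 and 20 mitotic genes and 22 and 22 of the second list were lower; the cause was not tested. Leaving out 1 library moved the lower calls among all genes between 1593 and 3549 and the higher ones between 1501 and 3091. Mitotic genes ranged from 2 to 9 higher and from 14 to 29 lower, and the second list from 6 to 25 higher and from 9 to 35 lower. With the length trend removed and DMSO replicate 2 left out, 29 genes of the second list were higher and 28 lower, beside 27.3% and 28.9% of all tested genes. Under that setting CKS2 was at -0.34, UBE2S at -0.25, STIL at 0.39, SKA3 at 0.30 and CKAP2 at 0.36 log2 units, each opposite in sign to its value with all libraries. Without DMSO replicate 2 alone, SMC3 at 0.33, SKA3 at 0.29 and CKAP2 at 0.29 also turned. SMC3, SKA3 and CKAP2 were at -0.22, -0.20 and -0.26 without DMSO replicate 3.

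With the replicate number as a block, 2306 genes were higher and 2437 lower, 8 and 22 of the mitotic genes (MYBL2 lost, adjusted p = 0.066) and 18 and 19 of the second list. Same-numbered samples deviated from their group means with correlations of 0.04, 0.10 and 0.15, not all over 0.1, so the numbers were not taken as pairs; every sample did correlate best with its own number, a hint from the data and not from the design. The counts of higher and of lower mitotic genes stayed within 1.5 times the reported 8 and 23 under RLE factors, library totals, no filter, the 1 CPM filter, DESeq2, and the block with the length trend removed. With 3 libraries a group, genes not called may still have changed. In the simulation, which gave both groups the same spread, 70.2% of 2-fold changes were found, a share that need not hold here.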
